A study of Mus musculus with 6 samples.

Results

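Complement and coagulation are protease cascades of blood plasma, and most of their proteins are made and secreted by hepatocytes. In complement, antibody complexes or sugar-binding lectins start a chain of proteases that converges on the cleavage of C3, after which C5 to C9 assemble a pore in the target membrane. In coagulation, tissue factor or contact with a surface starts a chain that ends in thrombin, which cuts fibrinogen into fibrin, and plasmin later dissolves the clot. Many of these liver genes also belong to the acute phase response, in which cytokines such as IL-6 raise their transcription, and insulin is known to influence the hepatic synthesis of fibrinogen.

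The genes described here are 48 complement and coagulation factors, their regulators and their receptors, listed by name. A gene was read when the platform annotation gave it a probe set with its symbol alone, and a gene with several was read by the probe set with the highest mean over all 6 arrays. By this rule 39 of the 48 were read, out of 8251 genes in all, with 18 of 25 in complement and 21 of 23 in coagulation. *C1s1*, *C3*, *C4b*, *C6*, *C8a*, *C8b*, *Cfd*, *F11* and *Cpb2* had no such probe set and were not analysed here; the probe sets of *C4b* are shared with *C4a*. For all 39 the annotation symbol was also the current one.

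Gene expression was compared between 3 LIRKO and 3 Flox arrays (Affymetrix MG-U74Av2), each hybridized with total liver RNA pooled from 2 to 3 mice. LIRKO mice were IR flox/flox and carried Cre recombinase under the albumin promoter (albumin:CRE +), which acts in hepatocytes, and Flox mice were their IR flox/flox littermates without it (albumin:CRE -). All were males of a mixed genetic background, aged 2 to 3 months, fed chow and killed without fasting. Probe set 102146_at of *Insr*, the deleted gene, read 5.37, 5.99 and 6.06 on LIRKO 1, LIRKO 2 and LIRKO 3, against 5.45, 5.22 and 5.38 on Flox 1, Flox 2 and Flox 3. Whether it lies in the deleted part is not known here, so it does not check the labels. Nothing says how the pools were made up beyond this, so the p-values measure the spread between pools.

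All values are log2 signals after the authors' robust multichip averaging (RMA), so a difference of 1 is a 2-fold difference, and each difference is LIRKO minus Flox. Levels of different probe sets do not compare RNA amounts between genes, and ranks by level below are ranks of signal alone. Of 12422 probe sets tested, 16 passed an adjusted p of 0.05 in limma. LIRKO 2 and LIRKO 3 stood apart from the other 4 arrays: the brightest 10% of probe sets had a median difference from Flox of -1.09 on LIRKO 2 and -0.89 on LIRKO 3, but of -0.01 on LIRKO 1. Most of the complement and coagulation genes are bright in liver, and 29 of the 39 lay in that brightest 10% on Flox. Differences are therefore also given for LIRKO 1 alone and, where they are set against probe sets of like level, beside the median of the 200 probe sets nearest to the gene in mean Flox level. The 7 hepatocyte markers measured ranged from *Hpd*, at percentile 69.8 of all probe sets on Flox, to *Alb*, at percentile 99.98. LIRKO 1, LIRKO 2 and LIRKO 3 had median differences of 0.03, -0.63 and -0.96 over these markers, and the differences of single markers over all LIRKO arrays ranged from -1.88 for *Ttr* to 0.84 for *Hpd*, with none past the test. Their summed level was between 15.34 and 16.09 on the LIRKO arrays and between 15.96 and 16.06 on the Flox arrays. Such a sum adds unlogged signals and leans on the brightest markers, here *Alb* and *Apoa1*. The part of hepatocyte RNA in the complement and coagulation values was not tested.

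The promoters of a few genes are shown first, because the genes of the fibrinogen chains lie side by side on chromosome 3, and because *C4bp* and *C9* had the lowest differences of the whole list. Each is the 250 bases before the RefSeq transcription start (build GRCm38.p6), 5′ to 3′ on the strand of the gene. Capitals mark matches, on either strand, to GTTAAT (an HNF1 half-site), TTGCNNAA (C/EBP), CTGGGAA (the core of an IL-6 response element) or GTAAACA (FoxO and HNF3). No match of one motif overlapped a match of another.

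*C4bp*, C4b-binding protein, chr1:130661619-130661868, minus strand: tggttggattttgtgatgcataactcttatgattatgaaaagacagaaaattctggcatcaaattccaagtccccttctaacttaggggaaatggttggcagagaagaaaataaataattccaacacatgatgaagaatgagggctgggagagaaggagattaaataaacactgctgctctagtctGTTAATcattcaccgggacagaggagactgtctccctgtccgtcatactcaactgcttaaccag
*C9*, the pore-forming component, chr15:6445096-6445345, plus strand: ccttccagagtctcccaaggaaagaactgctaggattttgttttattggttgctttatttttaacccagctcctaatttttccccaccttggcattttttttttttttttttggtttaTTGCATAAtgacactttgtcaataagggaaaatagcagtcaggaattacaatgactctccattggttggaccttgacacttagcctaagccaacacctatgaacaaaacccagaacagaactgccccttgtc
*Fgg*, fibrinogen gamma chain, chr3:83007474-83007723, plus strand: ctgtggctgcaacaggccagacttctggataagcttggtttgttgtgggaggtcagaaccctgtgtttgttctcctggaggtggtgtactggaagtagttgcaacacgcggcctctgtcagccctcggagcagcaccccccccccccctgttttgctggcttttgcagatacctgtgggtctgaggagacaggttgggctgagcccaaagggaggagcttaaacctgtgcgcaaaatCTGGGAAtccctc
*Fga*, fibrinogen alpha chain, chr3:83025903-83026152, plus strand: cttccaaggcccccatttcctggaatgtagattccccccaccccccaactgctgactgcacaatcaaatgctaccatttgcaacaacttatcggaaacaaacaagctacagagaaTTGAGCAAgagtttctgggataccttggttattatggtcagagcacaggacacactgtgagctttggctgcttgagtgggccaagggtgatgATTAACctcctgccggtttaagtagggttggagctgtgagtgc
*Fgb*, fibrinogen beta chain, chr3:83049864-83050113, minus strand: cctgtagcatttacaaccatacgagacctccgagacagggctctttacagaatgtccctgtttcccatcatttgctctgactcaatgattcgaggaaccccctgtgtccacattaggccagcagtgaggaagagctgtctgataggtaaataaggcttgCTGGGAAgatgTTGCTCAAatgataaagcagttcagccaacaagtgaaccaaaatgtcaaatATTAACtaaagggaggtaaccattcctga

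The start of *Fga* lies 18.4 kb and that of *Fgb* 42.1 kb from the start of *Fgg*, with *Fgb* on the opposite strand. Promoters were held for 30 of the 39 genes, as 32 sequences. The HNF1 half-site stood in 9 of the 32 (28.1%), those of *C1ra*, *C4bp*, *Cfp*, *F13b*, *Fga*, *Fgb*, *Hc*, *Hgfac* and *Vtn*, against 6.43% of all 32851 promoters. The C/EBP letters stood in 5 (15.6%, against 9.56% of all) and the IL-6 core in 6 (18.8%, against 9.10% of all). The FoxO letters stood in 1, that of *Klkb1* (3.12%, against 3.17% of all). A match is a description of these letters and not a known site.

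No complement or coagulation gene passed an adjusted p of 0.05 in limma, where 0.0606% of all genes passed as lower and as many as higher. The lowest adjusted p was 0.237, shared by many of the 39 genes. At an unadjusted p under 0.05, limma had 12 complement genes lower and 1 higher and 12 coagulation genes lower. By the same rule 15.6% of all genes and 43.5% of the genes of the brightest 10% were lower, and 7.13% of all genes were higher. The methods' t-test had 1 complement gene higher and 1 coagulation gene lower at an unadjusted p under 0.05, where 2.46% of all genes were higher and 3.71% lower, and no complement or coagulation gene passed it after adjustment. The median difference was -1.19 for complement and -0.81 for coagulation, against -0.01 for all 8251 genes and -0.64 for the 993 genes of the brightest 10%. All LIRKO arrays lay below all Flox arrays for 8 of 18 complement genes and 7 of 21 coagulation genes. The same held for 16.7% of all genes and for 35.2% of the genes of the brightest 10%, so that the coagulation share is close to that of bright genes in general. All LIRKO arrays lay above all Flox arrays for *C3ar1* and *C5ar1* and for no coagulation gene, against 9.65% of all genes.

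LIRKO 1, a single array, was the one whose bright probe sets matched Flox. There the median difference was -0.19 for complement, with 13 of 18 genes below the Flox mean, and 0.01 for coagulation, with 10 of 21 below. The median level of the complement genes on LIRKO 1, 9.69, lay within those of the Flox arrays, 9.51 to 9.76. That of the coagulation genes, 10.87, lay below those of the Flox arrays, 10.94 to 11.29. Such medians of levels can fall on different genes, for coagulation on *F12* on LIRKO 1 and on *Hgfac* on the Flox arrays. They therefore do not measure the contrast of the arms. LIRKO 1 lay below all Flox arrays for 8 of 18 complement and 8 of 21 coagulation genes, beside 30.5% of all genes and 37.0% of the genes of the brightest 10%. It lay above all Flox arrays for 4 complement genes (*Mbl2*, *Cfp*, *C3ar1* and *C5ar1*) and 3 coagulation genes (*F5*, *Kng1* and *Pros1*), as for 25.6% of all genes. On LIRKO 2 and LIRKO 3 the medians were -1.73 and -1.55 for complement and -1.12 and -1.04 for coagulation. Probe sets of like level read -0.86 and -0.69 there for complement and -1.42 and -1.17 for coagulation. Taken gene by gene against these, the medians on LIRKO 2 and LIRKO 3 were -0.53 and -0.42 for complement. For coagulation they were -0.005 and 0.15. Set against these neighbours in level, the complement median was -0.42 over the 3 LIRKO arrays, with 14 of 18 genes below, and the coagulation median was -0.03, with 12 of 21 below. The difference between the arms was not tested.

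**Figure D1:**
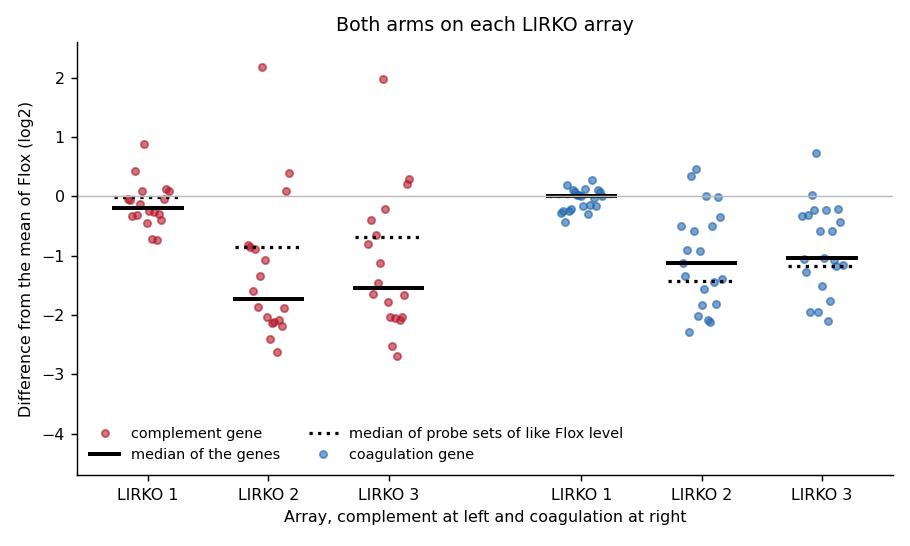
LIRKO value minus the Flox mean (log2, vertical axis) of each complement gene (red) and coagulation gene (blue) on LIRKO 1, LIRKO 2 and LIRKO 3; solid bars are medians of the genes and dotted bars the medians of probe sets of like level on Flox. The complement medians of -0.19, -1.73 and -1.55 lie below their dotted bars on all 3 arrays, whereas the coagulation medians of 0.01, -1.12 and -1.04 lie at or above theirs.

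When LIRKO 1 was left out, many more genes passed in limma. Then 14 complement genes passed as lower and 2 (*Cfb* and *C5ar1*) as higher, and 17 coagulation genes passed as lower and 1 (*F7*) as higher, while 30.0% of all genes passed as lower and 20.7% as higher. Of the genes of the brightest 10%, 78.9% passed as lower. Only *Cfp*, *C3ar1*, *F3*, *Kng1* and *Tfpi* did not pass. For some genes the direction rests on the probe set read. In the same fit the other probe sets of *Cfb* (-0.57) and *F7* (-0.98) passed as lower. Those of *C2* (2.43), *C8g* (1.18) and *Serpinf2* (2.03) passed as higher, although these genes are counted above as lower. The part of the level-dependent shift in these calls was not tested.

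**Figure D2:**
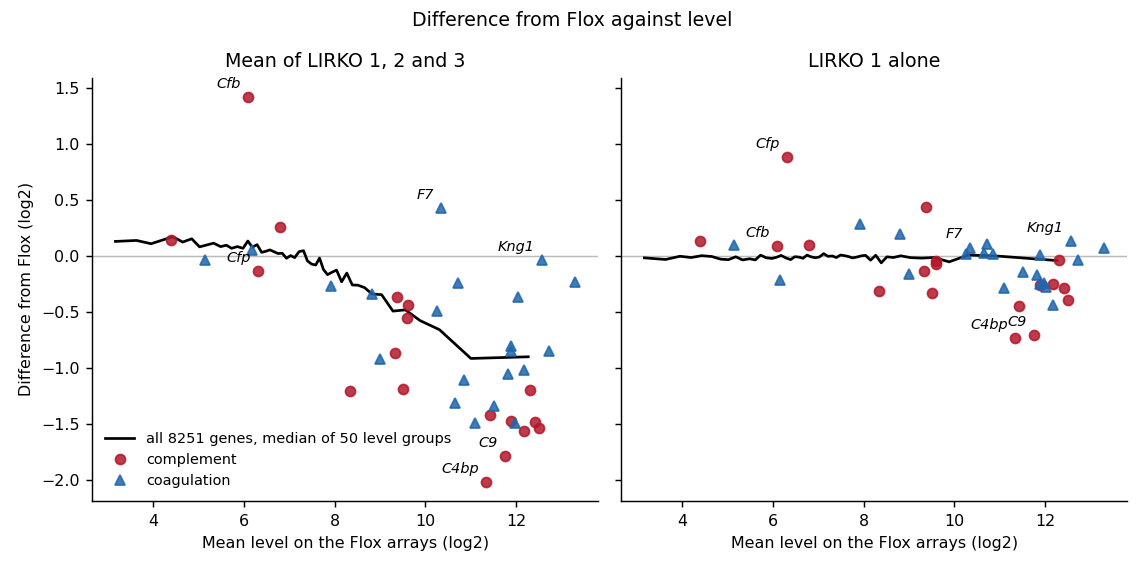
Difference from Flox (log2, vertical axis) against the average Flox signal (log2, horizontal axis) for complement (red circles) and coagulation genes (blue triangles), over the 3 LIRKO arrays at left and on LIRKO 1 alone at right; the black line is the median of all 8251 genes in groups of like level. The line reaches -0.90 in the brightest group at left and stays at -0.04 at right, with *C4bp* at -2.02 and -0.74.

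Within complement, the terminal pathway and the regulators had the lowest median differences, -1.56 and -1.48, and every gene of both had a mean below Flox. *C9*, which forms the ring of the membrane pore, read 11.05, 9.64 and 9.24 on LIRKO 1, LIRKO 2 and LIRKO 3, against 12.01, 11.54 and 11.74 on the Flox arrays. The groups did not overlap, and LIRKO 1 was also below every Flox array. The difference was -1.79 (standard error 0.44, adjusted p = 0.237 from limma), and that of LIRKO 1 alone was -0.71, where probe sets of like level read 0.02. *Hc*, which encodes C5, the component cleaved to start pore assembly, read 10.99, 9.41 and 9.66 in LIRKO liver and 11.75, 11.21 and 11.36 in Flox liver. LIRKO 1, at -0.45 from the Flox mean, was also under the lowest Flox array. *C8g*, the gamma chain of C8, read 11.92, 9.77 and 10.14 in LIRKO liver, against 12.26, 12.04 and 12.22 in Flox liver, a difference of -1.56 (standard error 0.52, adjusted p = 0.237) of which LIRKO 1 had -0.25. The median over these 3 genes became -0.77 after cyclic loess between arrays, a renewed normalization that evens out level-dependent shifts.

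Of the regulators, *C4bp*, the plasma cofactor with which factor I cleaves C4b, had the lowest difference of all 39 genes. It read 10.61, 8.72 and 8.65 in LIRKO liver, against 11.52, 11.16 and 11.37 in Flox liver. All LIRKO arrays lay below all Flox arrays, LIRKO 1 included. The difference was -2.02 (standard error 0.51, adjusted p = 0.237), that of LIRKO 1 alone was -0.74, and that after cyclic loess was -1.39, in which it did not pass either (adjusted p = 0.137). *Vtn*, vitronectin, which keeps the terminal complex from inserting into membranes, read 12.12, 10.32 and 10.48 in LIRKO liver and 12.63, 12.45 and 12.44 in Flox liver, a difference of -1.53 (standard error 0.45, adjusted p = 0.237). *Serping1*, the inhibitor of C1 and of the contact proteases, and *Cfi*, factor I itself, had differences of -1.48 each, with -0.29 and -0.26 on LIRKO 1. For *Cfi* the value of 11.64 on LIRKO 1 lay just above that of Flox 2, 11.61, so that its groups overlapped. *Clu*, clusterin, which also binds the terminal complex, had a difference of -1.19 over all LIRKO arrays and of -0.04 on LIRKO 1. Its second probe set gave -0.97 and -0.21.

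The genes that start the classical and lectin pathways had a median difference of -0.71, and all 6 lay below 0. *Mbl1*, a mannose-binding lectin, read 9.17, 7.91 and 7.86 in LIRKO liver, against 9.65, 9.53 and 9.33 in Flox liver. The other lectin, *Mbl2*, read 9.81, 8.48 and 8.72 in LIRKO liver, against 9.54, 9.16 and 9.43 in Flox liver. On LIRKO 1 the lectins thus stood on opposite sides of Flox, at -0.33 for *Mbl1* and 0.44 for *Mbl2*. Whether they differ from each other was not tested. *Masp1* and *Masp2*, the proteases that the lectins carry, had differences of -1.21 and -0.87, and *Masp1* had -0.99 relative to probe sets of like level. *C1ra*, a protease of the C1 complex, and *C2*, a convertase subunit, had -0.55 and -0.44, with -0.05 and -0.07 on LIRKO 1, close to the -0.49 and -0.50 of probe sets of like level. The other probe set of *C1ra*, 95414_i_at, had -0.05. The probe set read for *C1ra* (95415_f_at) is of a type that can share sequence with related genes, and another probe set is annotated to both *C1ra* and *C1rb*, so that the values of *C1ra* are uncertain.

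*Cfp*, properdin, which stabilizes the alternative convertase and is made mainly by leukocytes, read 7.19, 5.23 and 6.09 in LIRKO liver and 5.99, 6.56 and 6.37 in Flox liver. Its LIRKO arrays lay on both sides of Flox, with LIRKO 1 at 0.88 and LIRKO 2 at -1.08. *C3ar1*, the receptor of C3a on myeloid cells, read 4.52, 4.47 and 4.60 in LIRKO liver, against 4.36, 4.35 and 4.45 in Flox liver, near the low end of all signals. Its difference of 0.15 (adjusted p = 0.404 from limma) was no larger than the 0.16 of probe sets of like level. *C5ar1*, the receptor of C5a, read 6.88, 7.18 and 7.08 in LIRKO liver, against 6.73, 6.84 and 6.79 in Flox liver, a difference of 0.26 (standard error 0.12, adjusted p = 0.257). Probe sets of like level read 0.04 for *C5ar1*. For both receptors the groups did not overlap.

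Markers of Kupffer cells and macrophages also differed between the LIRKO arrays, though not all in the way of *Cfp*. Of 9 measured, 6 lay above all Flox arrays on LIRKO 1 and none below, with a median of 0.41. Of all genes, 25.6% lay above and 30.5% below on that array. On LIRKO 2 and LIRKO 3 the medians of these markers were -0.66 and -0.30. *Adgre1* went the other way, at 0.31, 0.12 and 0.85 on LIRKO 1, LIRKO 2 and LIRKO 3. Genes in the group at Flox level 7.94, near that of *C1qb*, the middle marker by level, had medians of -0.28 on LIRKO 2 and -0.20 on LIRKO 3. In the group at Flox level 8.82, near that of the brighter markers, the medians were -0.60 and -0.52. The summed level of the list was between 10.91 and 12.06 on the LIRKO arrays and between 11.12 and 11.99 on the Flox arrays, and none passed the test. Its lowest marker, *Marco*, read 5.81 on Flox. Fewer cells of a type and less RNA per cell cannot be told apart in these bulk samples, and the part of macrophage RNA in the values of *Cfp* was not tested. The subunits of C1q, *C1qa*, *C1qb* and *C1qc*, which macrophages make, are among these markers and lay 0.42, 0.62 and 0.43 above the Flox mean on LIRKO 1.

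**Figure D3:**
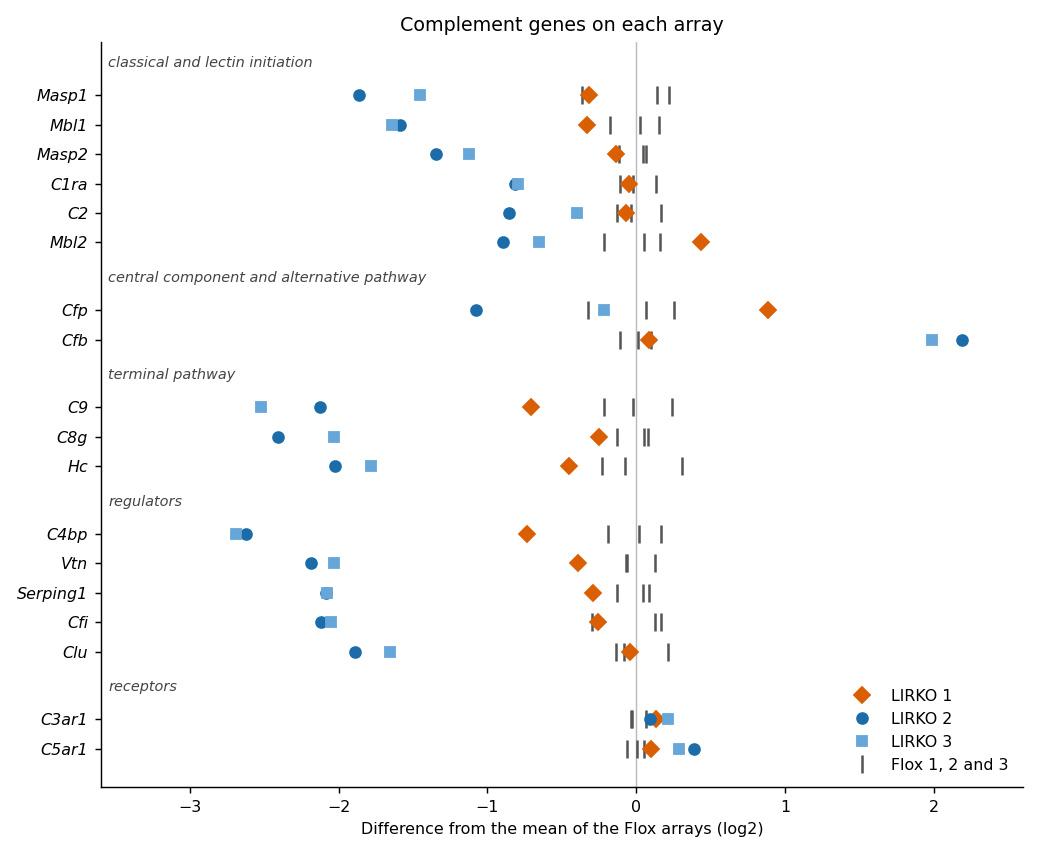
Array value minus the Flox mean (log2, horizontal axis) of the 18 complement genes read, by role; diamonds, circles and squares are LIRKO 1, LIRKO 2 and LIRKO 3 and ticks are the Flox arrays. *C9*, *Hc*, *C8g*, *C4bp*, *Vtn* and *Serping1* have all LIRKO arrays left of all Flox ticks, and *Cfp* has LIRKO 1 at 0.88 and LIRKO 2 at -1.08.

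Within coagulation, the chains of fibrinogen, the precursor of fibrin, each lay below Flox on every LIRKO array. *Fga* read 11.76, 11.53 and 11.71 in LIRKO liver, against 12.14, 11.93 and 12.03 in Flox liver. *Fgb* read 11.65, 10.78 and 10.84 in LIRKO liver, against 11.95, 11.87 and 11.88 in Flox liver. *Fgg* read 11.74, 10.84 and 10.90 in LIRKO liver, against 12.23, 12.09 and 12.21 in Flox liver. In each chain all LIRKO arrays lay below all Flox arrays, and on LIRKO 1 the differences were alike, at -0.28, -0.25 and -0.44. The differences over all arrays were -0.37 (standard error 0.12), -0.81 (standard error 0.24) and -1.02 (standard error 0.25), each with an adjusted p of 0.237 from limma. Probe sets of like level read between -0.95 and -0.92, and after cyclic loess the differences were 0.50, 0.01 and -0.17, so that on this scale *Fga* lay above Flox. *F13b*, the carrier subunit of factor XIII, which crosslinks fibrin, had -0.34 (adjusted p = 0.469) and 0.19 on LIRKO 1.

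Along the tissue factor and common pathway, prothrombin and factor X had the lowest differences. *F2*, prothrombin, read 11.74, 9.70 and 10.04 in LIRKO liver, against 12.05, 11.90 and 12.01 in Flox liver, a difference of -1.49 (standard error 0.49, adjusted p = 0.237). *F10*, which cleaves prothrombin, read 10.68, 8.64 and 8.71 in LIRKO liver, against 10.74, 10.60 and 10.64 in Flox liver, a difference of -1.32 (standard error 0.52, adjusted p = 0.237). For *F10* the value on LIRKO 1 lay within the Flox arrays, at 0.02, whereas for *F2* it lay below them, at -0.24. The other probe set of *F10*, 96501_at, had -0.33. *F7*, the protease that tissue factor activates, lies next to *F10* on chromosome 8, with starts 11.3 kb apart. Its brighter probe set read 10.43, 10.82 and 11.09 in LIRKO liver, against 10.28, 10.32 and 10.46 in Flox liver, a difference of 0.43 (standard error 0.18, adjusted p = 0.24). Its other probe set read 9.47, 8.46 and 8.58 in LIRKO liver, against 9.47, 9.50 and 9.53 in Flox liver, a difference of -0.66, so that *F7* has no settled direction. *F5*, the cofactor of factor X, had -0.24 (adjusted p = 0.446), where probe sets of like level read -0.77. *F3*, tissue factor itself, which is made mainly outside hepatocytes, read 5.95, 6.52 and 6.19 in LIRKO liver and 6.08, 6.12 and 6.30 in Flox liver, with overlapping groups.

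Among the genes grouped here with the contact and intrinsic pathway, the values ranged from *Hgfac* to *Kng1*. *Hgfac*, a protease related to factor XII that activates hepatocyte growth factor, read 10.81, 9.01 and 9.0 in LIRKO liver, against 11.29, 10.94 and 11.07 in Flox liver, a difference of -1.49 (standard error 0.48, adjusted p = 0.237) and of -0.29 on LIRKO 1. *Kng1*, the kininogen from which kallikrein frees bradykinin, read 12.70, 12.57 and 12.34 in LIRKO liver, against 12.58, 12.57 and 12.55 in Flox liver. Its difference was -0.03 (standard error 0.13, adjusted p = 0.885), although probe sets of like level read -1.44 and -1.19 on LIRKO 2 and LIRKO 3. It thus lay near its Flox level on arrays where most bright probe sets read lower, and after cyclic loess it was at 0.95. The closely related *Kng2* was not analysed here, and whether the probes also bind its RNA is not known here. *F12*, *Klkb1*, which encodes prekallikrein, and *F9* had -1.10, -0.92 and -0.50, with 0.01, -0.16 and 0.02 on LIRKO 1.

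The anticoagulants and the genes of fibrinolysis had no common value. *Proc*, protein C, which cuts the activated cofactors, read 11.37, 9.41 and 9.75 in LIRKO liver, against 11.60, 11.49 and 11.47 in Flox liver, a difference of -1.34 (standard error 0.48, adjusted p = 0.237). Its cofactor *Pros1*, protein S, had -0.27 and lay 0.29 above Flox on LIRKO 1. *Serpind1*, heparin cofactor II, and *Serpinc1*, antithrombin, both inhibitors of thrombin, had -1.05 and -0.85, with -0.17 and -0.03 on LIRKO 1. Probe sets of like level read -0.95 for *Serpind1*, -0.87 for *Serpinc1* and -0.92 for *Proc*. *Tfpi*, the inhibitor of tissue factor, read 5.24, 5.13 and 4.92 in LIRKO liver and 5.12, 5.25 and 5.04 in Flox liver, with overlapping groups. *Plg*, the precursor of plasmin, had -0.23 and *Serpinf2*, the inhibitor of plasmin, had -0.85. Probe sets of like level read -0.86 and -0.95. For both genes LIRKO 1 lay within the Flox arrays. The values of both are from the brighter probe sets. That of *Plg*, 161626_f_at, is of the same type as the one read for *C1ra*, which can share sequence with related genes. The other probe set of *Plg*, 101985_at, read 12.55, 10.90 and 11.30 in LIRKO liver, against 12.79, 12.66 and 12.57 in Flox liver, a difference of -1.09 (standard error 0.40, adjusted p = 0.237). There all LIRKO arrays lay below all Flox arrays, so that the size of the difference of *Plg* rests on the probe set read. The 6 genes whose proteins need vitamin K (*F2*, *F7*, *F9*, *F10*, *Proc* and *Pros1*) had a median of -0.91 over all LIRKO arrays and of 0.02 on LIRKO 1. Over all LIRKO arrays, probe sets of like level had a median of -0.69. Taken gene by gene against these, the median was -0.26.

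**Figure D4:**
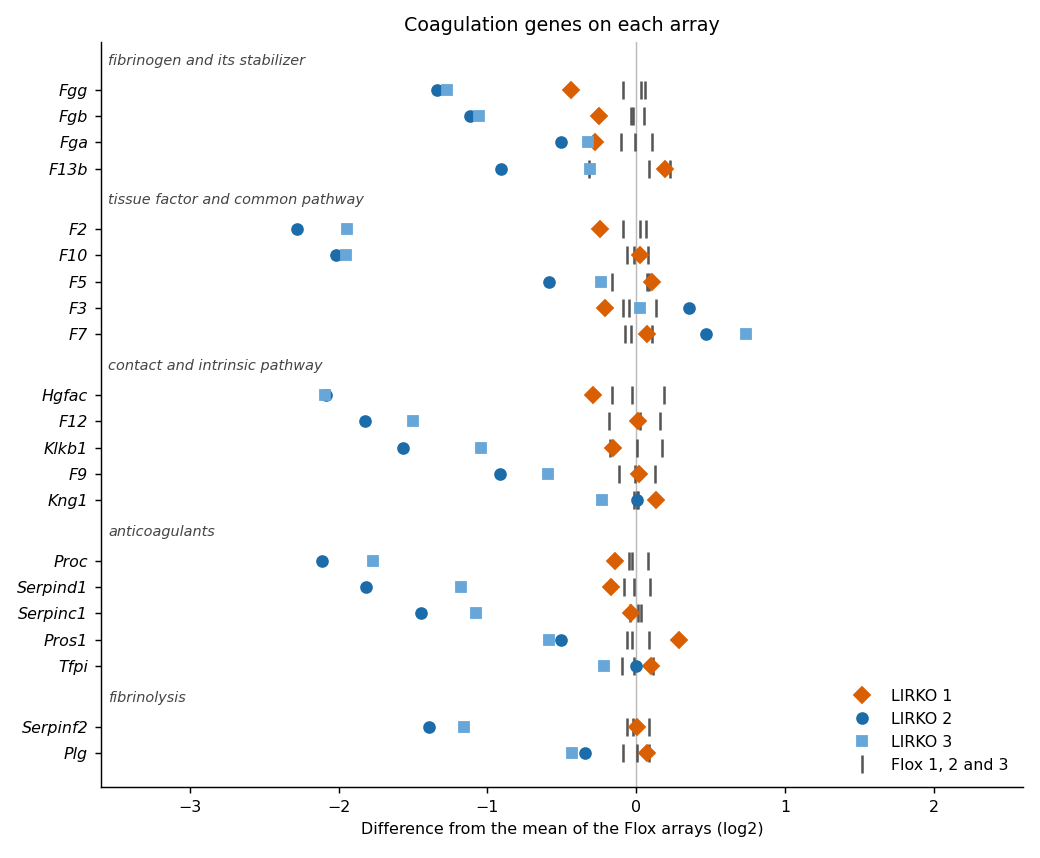
Array value minus the Flox mean (log2, horizontal axis) of the 21 coagulation genes read, by role; diamonds, circles and squares are LIRKO 1, LIRKO 2 and LIRKO 3 and ticks are the Flox arrays. *Fga*, *Fgb* and *Fgg* lie left of their ticks on every LIRKO array, and *Kng1* stays near 0 while *F2* and *F10* reach -2.28 and -2.02 on LIRKO 2.

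Of the 39 genes, 10 were read by more than 1 probe set, and in 5 of them the pair differed in sign. For *C2*, *C8g* and *Serpinf2* the brighter probe set lay below Flox and the dimmer one above, and for *Cfb* and *F7* it was the reverse. *Cfb*, factor B, the protease of the alternative convertase, read 6.18, 8.29 and 8.08 in LIRKO liver on 161365_r_at, against 5.98, 6.11 and 6.19 in Flox liver, but 5.78, 5.45 and 5.20 on 100609_at, against 5.83, 5.97 and 5.88 in Flox liver. Its differences of 1.42 and -0.42 had an adjusted p of 0.237 each. *Serpinf2* read 7.57, 9.39 and 9.19 in LIRKO liver on its dimmer probe set 161916_r_at, against 7.24, 7.40 and 7.14 in Flox liver, a difference of 1.45 beside -0.85 on 101928_at. *C2* read 9.54, 8.75 and 9.21 in LIRKO liver on 103673_at, against 9.77, 9.48 and 9.57 in Flox liver, but 4.39, 6.24 and 7.07 on 162366_r_at, against 4.0, 4.31 and 4.36 in Flox liver. The differences of *C2* were -0.44 and 1.67, and the dimmer probe set of *C8g* (161837_r_at) had 0.87. In all 4 _r_at probe sets, those of *C2*, *C8g*, *Cfb* and *Serpinf2*, the difference from Flox was larger on LIRKO 2 and LIRKO 3 than on LIRKO 1, which was at 0.30 or less. LIRKO 1 nonetheless also lay above all Flox arrays on those of *C2*, *C8g* and *Serpinf2*.

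The probe sets that lay above Flox on LIRKO 2 and LIRKO 3 in *C2*, *C8g*, *Cfb* and *Serpinf2* carry this suffix, which marks probes chosen with some of the design rules relaxed. Over the whole array, the 901 probe sets with that suffix had medians of 0.41 on LIRKO 2 and 0.38 on LIRKO 3, against -0.04 on LIRKO 1. Of them, 64.3% lay above all Flox arrays on both LIRKO 2 and LIRKO 3, against 30.3% of the 9614 probe sets with no such letter. Probe sets with the suffix were also dimmer, with a median Flox level of 5.64 against 6.67 for those with no such letter. Genes in the group at Flox level 5.61 had medians of 0.21 on LIRKO 2 and 0.09 on LIRKO 3. *Proc* was the exception, since its 161656_r_at had -0.36. Whether the probe design or the level has a part in the 4 positive differences was not tested.

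**Figure D5:**
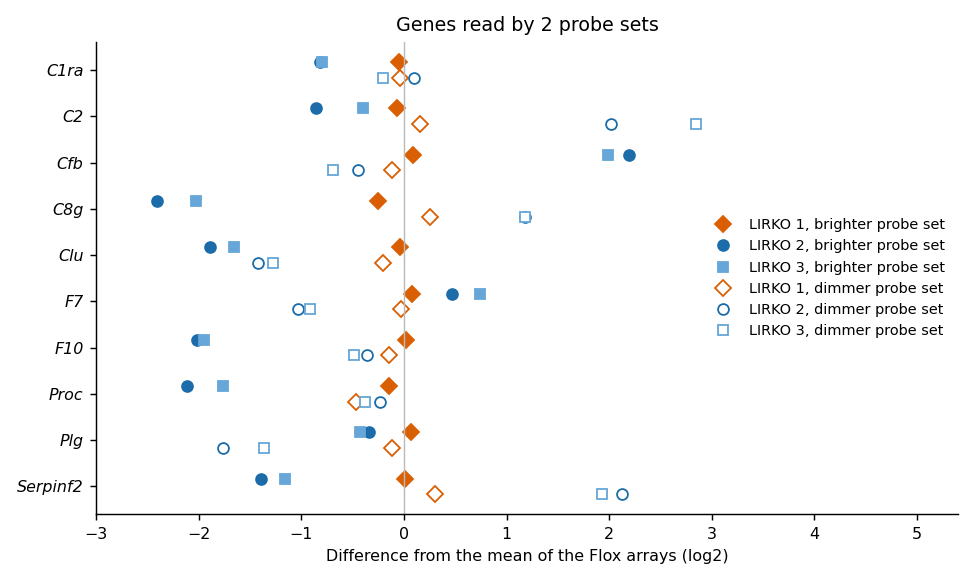
Array value minus the Flox mean (log2, horizontal axis) on LIRKO 1 (diamonds), LIRKO 2 (circles) and LIRKO 3 (squares) for the 10 genes read by more than 1 probe set; filled symbols are the brighter probe set and open symbols the dimmer one. In *C2*, *C8g* and *Serpinf2* the open symbols of LIRKO 2 and LIRKO 3 lie right of 0 and the filled ones left, and in *Cfb* and *F7* the sides are exchanged.

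Other genes of the cascades were taken from 2 lists. Of 23 further complement genes 14 were measured, none passed in limma in either direction, and 9 had a mean below Flox, with a median difference of -0.13. The highest were *Cd55*, which dissolves convertases on cell surfaces, at 0.45 (adjusted p = 0.238) and a Flox level at percentile 4.04 of all probe sets, and *Itgax*, a subunit of a complement receptor, at 0.31. The lowest were *Cd59a*, which blocks the pore on cell surfaces, at -0.71, and *C1qb*, at -0.42. Of 33 further coagulation genes 24 were measured, none passed in either direction, and 13 had a mean below Flox, with a median of -0.08. *Serpina10*, the inhibitor that acts with protein Z on factor X, read 10.12, 8.72 and 8.84 in LIRKO liver, against 10.97, 10.60 and 10.60 in Flox liver, a difference of -1.49 (standard error 0.37, adjusted p = 0.237) and of -0.60 on LIRKO 1. *Tfpi2*, a further protease inhibitor, read 8.07, 7.06 and 7.32 in LIRKO liver, against 8.88, 8.60 and 8.91 in Flox liver, a difference of -1.32 (standard error 0.26, adjusted p = 0.237) and of -0.73 on LIRKO 1. In both, all LIRKO arrays lay below all Flox arrays and LIRKO 1 was lower by more than for any of the 21 coagulation genes above. The highest were *Thbd*, thrombomodulin, at 1.00 and *Serpinb2*, an inhibitor of plasminogen activators, at 0.87 (adjusted p = 0.237 each), with Flox levels of 4.30 and 4.31 near the low end of all signals.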

How the data were processed

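The authors pooled liver RNA of several mice per chip, hybridized it to Affymetrix MG-U74Av2 chips and used affy and limma in R for background correction and RMA normalization, with versions not given in the sources used here. The deposited values are log2 signals, 1 for each probe set on each array. The sources do not say whether the arrays went through RMA as a single set. Values were taken as deposited. After 66 array controls were left out of 12488 probe sets, 12422 were tested with limma 3.58.1 in R 4.3.3 (lmFit and eBayes, default settings) with Benjamini-Hochberg adjustment over all of them and a threshold of 0.05, without a filter on dim signals. In the platform annotation 10833 probe sets carry 1 symbol, 396 several and 1193 none. Arrays give no counts, so the number of arrays limits the precision.

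Members, roles and lists were chosen with earlier results of these data known. Named with values on each array were the fibrinogen chains, the 4 highest and 4 lowest genes of each arm, genes whose probe sets differ in sign, and *Cfp*, *C3ar1* and *C5ar1*; *Hc*, *Mbl1* and *Mbl2* were added after their values were seen. The comparison with the 200 probe sets of like level was also chosen after seeing the data. Also run were quantile and cyclic loess normalization, the test on brighter probe sets alone, a trended robust variance, a block for the replicate number, the methods' t-test, averaging the probe sets of each gene and leaving out arrays. The limma script was checked on simulated data. Promoters came from RefSeq (GRCm38.p6). Figures used Python 3.11.15, numpy 2.4.6, pandas 2.3.3 and matplotlib 3.10.9.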

Additional observations from a re-analysis of the deposited data

How the results depend on the processing

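No complement or coagulation gene passed in any alternative other than leaving out LIRKO 1, whether by another normalization or variance model, leaving out dim probe sets, the methods' t-test, averaging the probe sets of each gene, LIRKO 1 as the only LIRKO array, or the replicate block, in which 0 and 0 passed. Same-numbered arrays deviated together at 0.32, 0.40 and 0.09 across probe sets and other pairs at -0.37 to 0.17. The main fit did not take arrays as pairs, and whether same-numbered arrays share an effect was not tested. With 1 array left out, 0 to 16 complement and 0 to 18 coagulation genes passed, the highest without LIRKO 1, and the medians ranged from -1.64 to -0.87 and from -1.09 to -0.55. The complement median of -1.19 became -0.57 after cyclic loess, -0.19 on LIRKO 1 alone and -0.42 against probe sets of like level. The coagulation median of -0.81 became -0.18 after renewed quantile normalization, -0.051 after cyclic loess, 0.0076 on LIRKO 1 alone and -0.026 against probe sets of like level. The cause was not tested.

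Of the 21 genes named by the rule, signs turned as follows, in no case with a call. After cyclic loess *C2* was at 0.025, *Fga* at 0.50, *Fgb* at 0.0061 and *Kng1* at 0.95, and after quantile normalization *Fga* was at 0.22 and *Kng1* at 0.39. On LIRKO 1 alone *Cfp* was at 0.88, *F10* at 0.023, *F3* at -0.21, *Kng1* at 0.13, *Serpinf2* at 0.0076 and *Tfpi* at 0.10. With averaged probe sets *C2* was at 0.62, *F7* at -0.12 and *Serpinf2* at 0.30. With 1 array left out, the values ranged from -0.64 (without LIRKO 1) to 0.33 (without LIRKO 2) for *Cfp*, from -0.095 (without LIRKO 2) to 0.19 (without LIRKO 1) for *F3*, from -0.11 (without LIRKO 1) to 0.068 (without LIRKO 3) for *Kng1* and from -0.11 (without LIRKO 1) to 0.049 (without LIRKO 3) for *Tfpi*, which was also at 0.016 without Flox 2.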
